A study of Mus musculus with 6 samples.

Results

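The synaptic and axonal adhesion molecules were taken as the genes of 13 families whose gene symbols begin with a fixed family name, from the neurexins and neuroligins to the contactins, the L1 family and the teneurins. Of the 15095 genes in the authors' deposited comparison of Setd2-KO with wild-type neural progenitor cells (NPCs), 49 belonged to these families. A further 4 known members, Lrrtm2, Cntnap5a, Cntnap5b and Cntnap5c, had no row there, and their expression was not analysed here. The rule for members used the gene symbol and no measured value; which members are named with their values depended in part on their level and change.

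PolyA RNA was measured in 3 wild-type and 3 Setd2-KO libraries of mouse NPCs. Both genotypes came from one isogenic background of embryonic stem cells. The Setd2-KO line had been made by CRISPR in earlier work, and whether the libraries represent 1 clone or separate differentiations is not stated. Cells of both groups were cultured as aggregates for 4 days without and 4 days with retinoic acid (5 uM), and were collected at day 8; the titles call them NPC, whereas the cell type field still names embryonic stem cells. SETD2 is the enzyme that places H3K36me3 on the bodies of transcribed genes. Setd2 RNA itself did not pass the test (log2 fold change -0.44, FDR 1), and RNA level does not check a CRISPR allele.

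Adhesion molecules of these families hold the axon, the growth cone and the synapse together. Presynaptic receptors such as neurexins reach across the cleft to postsynaptic ligands such as neuroligins and leucine-rich repeat transmembrane proteins, while immunoglobulin-type molecules such as NCAM, L1 and the contactins act earlier, when axons grow, bundle and find their targets. Many of them are switched on as a progenitor leaves the cell cycle and becomes a neuron.

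All changes below are log2 fold changes of Setd2-KO over wild type from the authors' deposited table, so that a negative value is a lower RNA level in Setd2-KO NPCs. The level of a gene is its log2 CPM (counts scaled to library size), averaged over all 6 libraries. It follows the number of reads, which grows with transcript length, so that expression is compared between genes per kb of canonical transcript. A gene was called lower or higher when the false discovery rate (FDR) of a test against an absolute log2 fold change of 1 was under 0.05, adjusted over all 15095 genes. With this test a gene that does not pass is not shown to be unchanged. The table holds no value per library, so that no SD can be given and overlap between the groups cannot be shown. The p-values measure the spread between these 3 and 3 libraries, which may be technical.

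Of the 49 adhesion genes, 8 fell in Setd2-KO NPCs (16.3%), 0 rose and 41 did not pass. Over all genes, 2.11% were called lower and 1.54% higher. At an unadjusted p under 0.05 the same test gave 10 lower and 0 higher adhesion genes. In all, 34 of the 49 had a value below 0 (69.4%, against 49.2% of all genes), and their median change was -0.44, against 0.01 over all genes. Large differences were uneven in the same way. A value below -1 was found for 15 members (30.6%, against 4.70% of all genes), and 7 of these 15 did not pass the test. A value above 1 was found for 2 members (4.08%, against 3.83% of all genes). The 8 lower genes came from 6 of the 13 families and lay on 6 of the 18 chromosomes that carry a member.

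**Figure D1:**
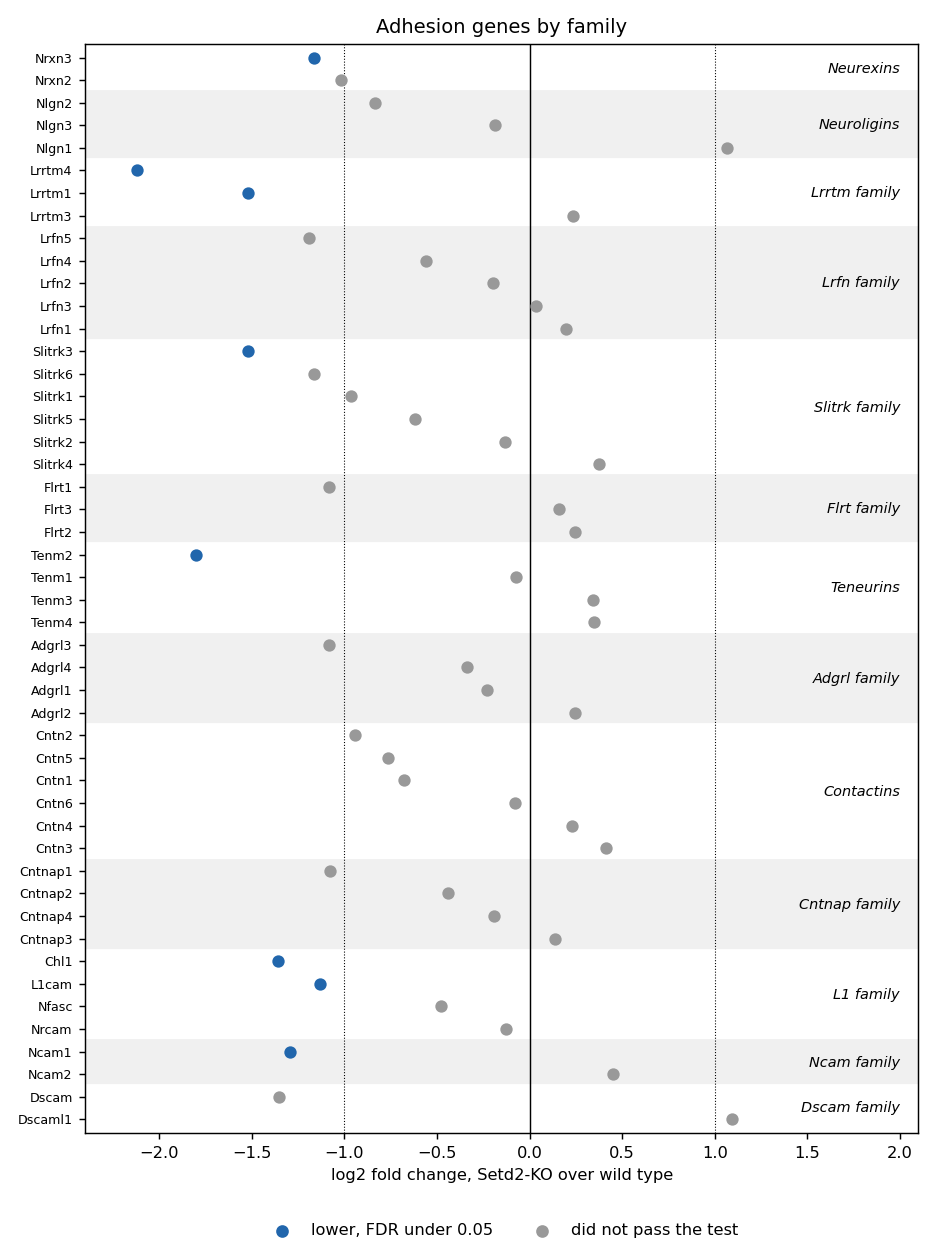
Each point is one of 48 adhesion genes, placed by its log2 fold change of Setd2-KO over wild type on the x axis and grouped by family; blue points fell at an FDR under 0.05, grey points did not pass, and dotted lines mark -1 and 1. The 8 blue points all lie below -1, which passing a test against an absolute log2 fold change of 1 requires. Most families spread to both sides of 0, while all 4 genes of the L1 family and the neurexins drawn lie below 0.

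The neurexins, the presynaptic receptors at the centre of this network, held 1 called gene. Nrxn3 fell by 1.16 on the log2 scale (2.24-fold lower, average log2 CPM 5.27, FDR 0.0080). Nrxn2 had a value of -1.02 at an average log2 CPM of 6.69 and did not pass. Nrxn2 lies on chromosome 19, where the median change of 454 genes (those at 0 log2 CPM or above) was -0.37 and 83.0% had a negative value. The part of that shift in the Nrxn2 value was not tested.

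The postsynaptic ligands of neurexins diverged. Among the leucine-rich repeat transmembrane proteins, which organise excitatory synapses, Lrrtm4 fell by 2.12 (4.35-fold lower, average log2 CPM 0.56, FDR 2.2e-05). This was the lowest value of the 49, and the 46th lowest of all 15095 genes. Lrrtm1 fell by 1.52 (2.87-fold lower, average log2 CPM 2.73, FDR 7.2e-05). Lrrtm3 had a value of 0.23 and did not pass, at a level per kb close to that of Lrrtm4 (average of 0.323 and 0.320 CPM per kb). The neuroligins, the other main ligands, held no called gene. Nlgn2, which acts at inhibitory synapses, had a value of -0.83 at an average log2 CPM of 7.73. Per kb it had the highest level of the 3 neuroligins, with 38.2 CPM per kb against 5.54 for Nlgn3 and 0.508 for Nlgn1. Nlgn3 had a value of -0.19. Nlgn1, of excitatory synapses, stood at 1.07 (average log2 CPM 2.58, FDR 1), one of the 2 members above 1. The difference between Nlgn1 and Nlgn2, like every difference between members named here, could not be tested without values per library.

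Slitrk proteins and some Lrfn proteins are postsynaptic leucine-rich repeat proteins that bind presynaptic receptor phosphatases. Slitrk3, an organiser of inhibitory synapses, fell by 1.52 at a level below that of the other 7 called genes, also per kb (2.87-fold lower, average log2 CPM -0.04, FDR 0.041). The other 5 Slitrk genes ran from -1.16 for Slitrk6 to 0.38 for Slitrk4 and did not pass. Slitrk1 (-0.97), Slitrk6 and Slitrk5 (-0.62), which follow each other on chromosome 14 within gaps of 1834 and 920 kb, all had negative values. The Lrfn genes had no called member and ran from -1.19 for Lrfn5 to 0.19 for Lrfn1. Lrfn4 had a value of -0.56 (average log2 CPM 7.41). Per kb of canonical transcript it had the highest level of the 49 adhesion genes, with an average of 50.1 CPM per kb, ahead of Cntn2 with 45.9 CPM per kb and of Nlgn2.

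The teneurins are large ligands of the latrophilins, adhesion receptors encoded by Adgrl1 to Adgrl3, and latrophilins also bind FLRT proteins. Tenm2 fell by 1.80 (3.48-fold lower, average log2 CPM 2.58, FDR 9.3e-07), the lowest p of the 49. Its paralogs Tenm3 (0.34) and Tenm4 (0.35) were close to 0, as was Tenm1 (-0.07), and none of them passed. Tenm3 also had the higher level per kb, with 15.1 CPM per kb against 0.718 for Tenm2. Among the receptors, Adgrl3 had a value of -1.08 at 4.78 (FDR 0.32), while Adgrl1 stood at -0.23 and Adgrl2 at 0.24, both with a higher level per kb than Adgrl3 (33.6 and 9.06 against 3.03 CPM per kb). Adgrl4, a family member known from endothelial cells, stood at -0.34. For comparison, 8 endothelial markers had a median of -0.63 with 0 called, and Adgrl2 and Adgrl4 lie in a region of chromosome 3 (140 to 160 Mb) whose 57 genes had a median of 0.38. Flrt1 had a value of -1.09 (FDR 0.91), in contrast to Flrt3 (0.16) and Flrt2 (0.25). Flrt1 and Lrfn4 lie on chromosome 19 like Nrxn2, where the median change was -0.37, and the part of that shift in their values was not tested.

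The axonal immunoglobulin proteins held the 2 called genes with the highest levels per kb, Ncam1 (26.4 CPM per kb) and L1cam (15.6 CPM per kb). Ncam1, which mediates homophilic adhesion and carries polysialic acid on growing axons, fell by 1.30 at an average log2 CPM of 7.35 (2.46-fold lower, FDR 1.9e-06). Its paralog Ncam2 had a value of 0.45 at a level of 0.201 CPM per kb. In the L1 family, whose members bind ankyrin in the axonal membrane, Chl1 fell by 1.36 (2.56-fold lower, average log2 CPM 3.91, FDR 1.8e-04). L1cam fell by 1.13 (2.19-fold lower, average log2 CPM 6.41, FDR 0.031). Nfasc (-0.48) and Nrcam (-0.13), the remaining members, did not pass. Of the Dscam pair, which serves self-avoidance of neurites, Dscam had a value of -1.36 at a level of 0.08 and missed the threshold (FDR 0.24), whereas Dscaml1 stood at 1.09, the highest value of the 49 (FDR 1).

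The contactins, axonal proteins held to the membrane by a lipid anchor, and the Cntnap family, with which some of them pair beside the node of Ranvier, held no called gene. Cntn2 had a value of -0.94 at an average log2 CPM of 8.40. Cntn5 (-0.77) and Cntn1 (-0.68) were also negative, while Cntn6 (-0.08), Cntn4 (0.23) and Cntn3 (0.41) lay near 0 or above it. Cntnap1 had a value of -1.08 at a level of 2.68 (FDR 0.93), and the other members in the table ran from -0.44 for Cntnap2 to 0.14 for Cntnap3. On chromosome 6, Chl1 stands between Cntn3 and Cntn6, with gaps of 937 and 742 kb, followed by Cntn4. The fall was therefore found for 1 of 4 neighbouring adhesion genes, the other 3 having values from -0.08 to 0.41. Those 3 had few reads, with average log2 CPM of -0.33 for Cntn3, -0.20 for Cntn6 and -1.88 for Cntn4. Chl1 stood at 3.91, so that a fall in its neighbours could have been missed.

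Read depth per gene, as shown by the average log2 CPM, differed widely among the called genes. Of the 12 members at 6 or above, 2 fell (Ncam1 and L1cam), where 0.922% of the 3903 genes in that range were called lower. From 3 to 6 the count was 2 of 10, against 127 of 6341 genes, and from 0 to 3 it was 3 of 16, against 4.02% of 2984. Below 0, where fold changes are least precise, 1 of 11 fell (Slitrk3), against 1.93% of 1867. The 10 members with the most reads made up 77.6% of the summed CPM of the 49; these were Cntn2, Adgrl1, Nlgn2, Lrfn4, Tenm3, Ncam1, Nrxn2, Adgrl2, L1cam and Tenm4, and 7 of them had negative values. Across the members, average log2 CPM and change were nearly unrelated (Spearman's rho -0.08 over 49 genes, which are not independent replicates).

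**Figure D2:**
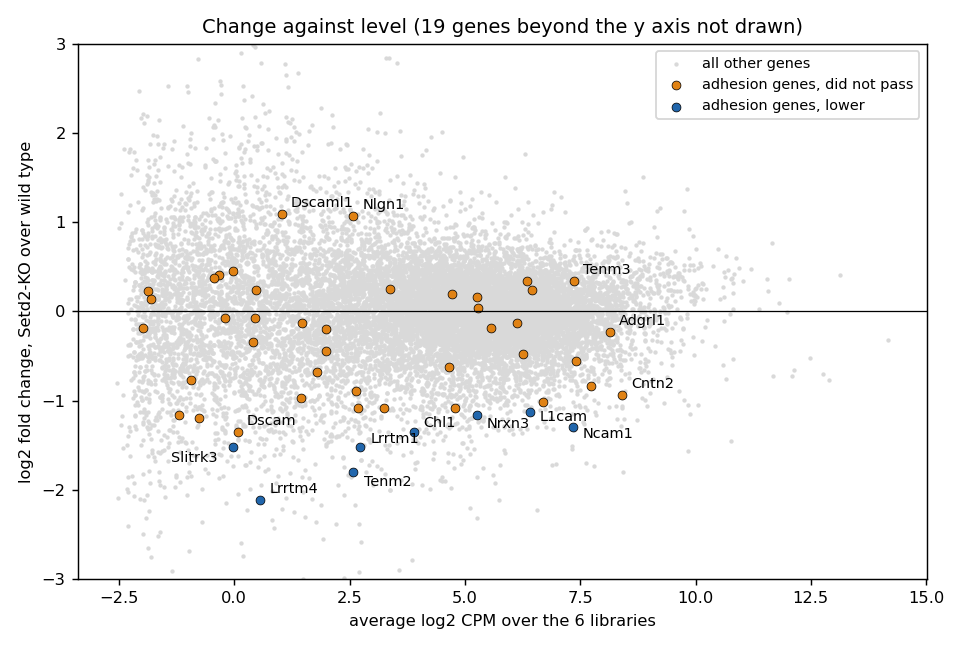
The x axis gives each gene's average log2 CPM (all 6 libraries) and the y axis its log2 fold change of Setd2-KO over wild type; grey points are all other genes, blue points the 8 adhesion genes that fell and orange points the 41 that did not pass. The blue points run from Slitrk3 at an average log2 CPM of -0.04 to Ncam1 at 7.35, and 19 genes beyond the y axis are not drawn.

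Known binding pairs were set side by side to see whether both sides of a contact had a lower RNA level. Of 16 listed pairs, 8 had negative values on both sides, 8 had values on opposite sides of 0 and 0 had positive values on both. Over all genes 49.2% had a value below 0, and the shares among other gene pairs were not counted. Cntn1, Cntn2, Adgrl3, Flrt3 and Ptprd each enter more than 1 pair, so that the 16 pairs are not separate observations. In 4 pairs 1 of the genes fell and in 0 pairs both did. Pairs of neurexins with their ligands were not among these 16, and there genes of both sides fell, Nrxn3 among the receptors and Lrrtm1 and Lrrtm4 among the ligands. Tenm2 fell, with its receptor Adgrl1 at -0.23 and an average log2 CPM of 8.15. Slitrk3 fell, with Ptprd, its presynaptic receptor phosphatase, at 0.25 and 7.06. L1cam fell, and its partner on the same axon, Cntn2, stood at -0.94. In contrast, Adgrl3 at -1.08 was paired with Flrt3 at 0.16 and Tenm3 at 0.34.

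**Figure D3:**
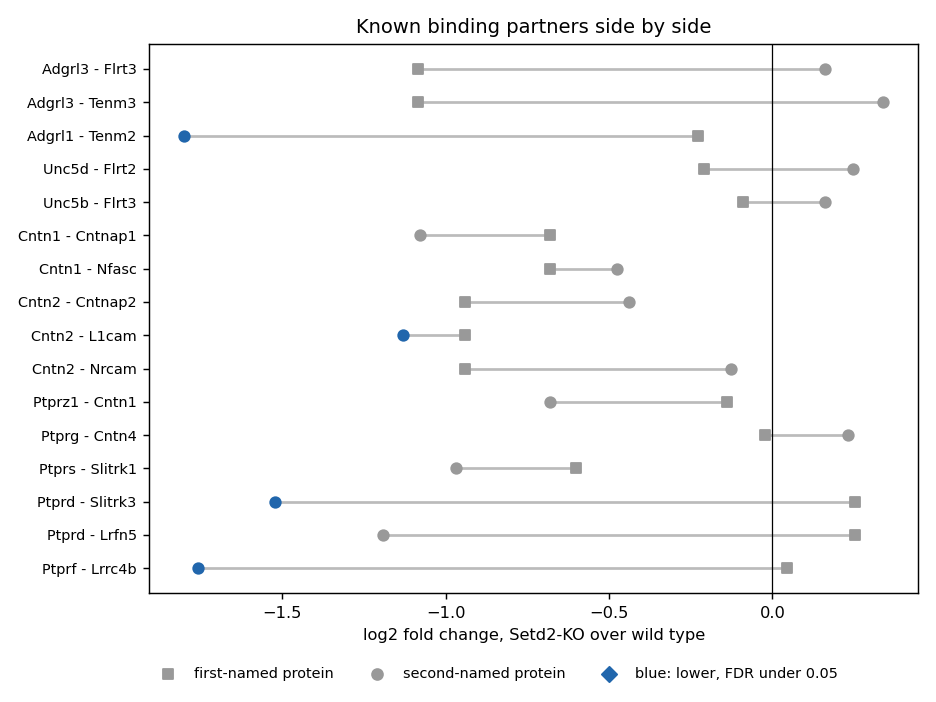
Each line joins the log2 fold changes (Setd2-KO over wild type, x axis) of 2 genes whose proteins bind each other, a square for the first-named and a circle for the second-named; blue marks an FDR under 0.05. The second-named gene is blue in 4 of the 16 pairs and the first-named gene in 0; pairs of neurexins with their ligands are not drawn.

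Beyond the families themselves, 81 of 82 listed partner genes were in the table. Of these, 7 fell (8.64%, against 2.11% of all genes), 0 rose (against 1.54%) and 74 did not pass. Their median was -0.28, against 0.01 over all genes, and at an unadjusted p under 0.05 the counts were 10 and 0. Among 38 receptors and ligands, 5 fell (13.2%). Lrrc4b, a postsynaptic ligand of the receptor phosphatase PTPRF, fell by 1.76 (average log2 CPM 5.39, FDR 5.4e-10), with Ptprf itself at 0.05. Ntng1, an axonal netrin-G that binds another protein of the Lrrc4 family, fell by 2.25 (average log2 CPM 1.30, FDR 2.5e-07). Cadm4, a SynCAM immunoglobulin protein, fell by 1.30 (average log2 CPM 6.57, FDR 1.2e-05). The cerebellins are secreted bridges between neurexins and their postsynaptic receptors. Cbln1 fell by 1.32 (average log2 CPM 2.69, FDR 0.012) and Cbln4 by 3.12, the latter with very few reads (average log2 CPM -1.79, FDR 0.0012). Among 33 scaffolds and anchors, 2 fell (6.06%). These were Dlgap1 of the postsynaptic density (-1.47, FDR 3.4e-04) and Ppfia2, a presynaptic liprin (-1.87, FDR 0.0046). The 10 shedding enzymes, which cut adhesion proteins from the membrane, held 0 called genes and had a median of -0.15.

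Markers of postmitotic neurons were also on the lower side. All 19 had negative values, from -1.49 to -0.56 with a median of -0.99, and 6 fell (Mapt, Stmn3, Elavl3, Gap43, Nefm and Syt1). Of the 49 adhesion genes, 4 lay below the lowest of these markers, namely Lrrtm4, Tenm2, Slitrk3 and Lrrtm1. Another 19 lay within the markers' range and 26 above it. The share of all genes in these ranges was not counted. The markers also had more reads, with average log2 CPM of 3.54 or above, against a median of 2.64 over the 49 members. Of 13 neural progenitor markers, 2 fell (Fabp7 at -2.91 and Pax3 at -1.84) and the median was -0.03. The other 11 did not pass and ran from -0.63 for Nes to 0.74 for Pax6. In all, 7 of the 13 had values below 0. Beside the counts for these marker lists, 2.11% of all genes were called lower and 1.54% higher. Of 10 glial lineage markers, 2 rose (Olig1 at 2.07 and Olig2 at 1.76), and their median was 0.47; Olig1 and Olig2 are factors of the oligodendrocyte lineage. The medians were -0.22 for 8 pluripotent cell markers (1 lower) and -0.33 for 9 mesenchymal cell markers (1 lower). In bulk RNA, fewer neurons and less RNA per neuron cannot be told apart, and the part of the neuronal markers' shift in the adhesion genes was not tested.

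**Figure D4:**
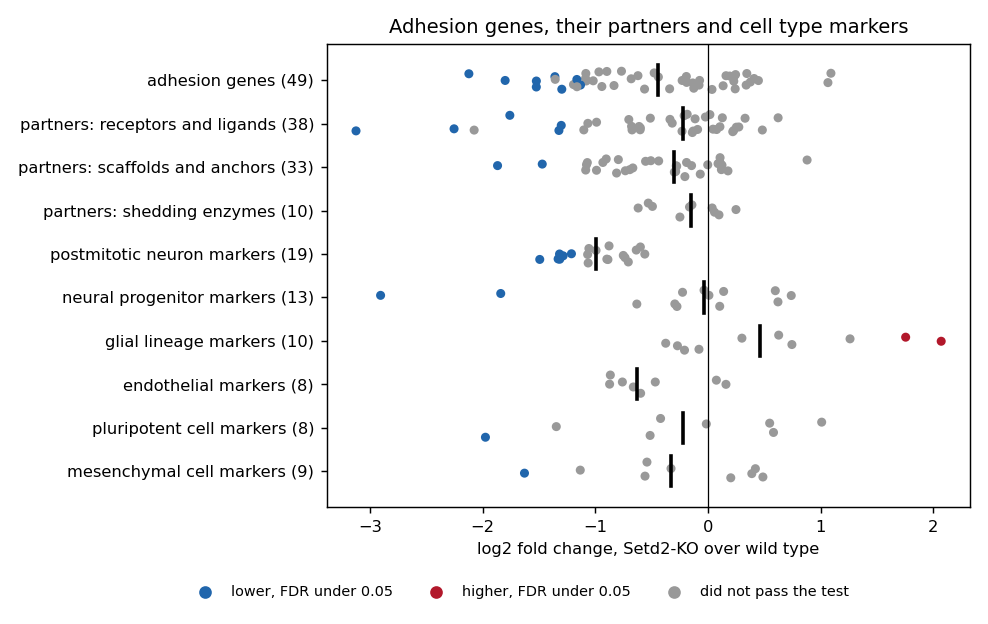
Each point is one gene, placed by its log2 fold change of Setd2-KO over wild type, with one row per list and the number of genes in brackets; blue genes fell, red genes rose, grey genes did not pass, and black bars are medians. The 19 neuronal markers lie between -1.49 and -0.56, whereas the 49 adhesion genes reach from -2.12 to 1.09 around a median of -0.44.

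Adhesion genes are long, and SETD2 acts on gene bodies, so that gene span was set beside the change. The members had a median span of 177 kb on GRCm39 (4.14 to 2245 kb), against 25.8 kb over 15066 genes. The called genes were of both kinds. Nrxn3 (chr12:88689646-90301709, plus strand) spans 1612 kb, Tenm2 (chr11:35897483-37126791, minus strand) 1229 kb and Lrrtm4 (chr6:79995860-80787124, plus strand) 791 kb. In contrast, Slitrk3 (chr3:72953166-72965342, minus strand) spans 12.2 kb and Lrrtm1 (chr6:77218820-77235200, plus strand) 16.4 kb. L1cam (chrX:72897378-72939711, minus strand), Chl1 (chr6:103487353-103727508, plus strand) and Ncam1 (chr9:49413436-49710357, minus strand) lie between them with 42.3, 240 and 297 kb. The number of exons in the canonical transcript likewise ran from 2 in Lrrtm1, Lrrtm4 and Slitrk3 to 28 in L1cam and 29 in Tenm2. Of 30 members of at least 100 kb, 5 fell (16.7%, against 2.91% of 2269 such genes), and of 19 shorter ones, 3 fell (15.8%, against 1.97% of 12797). The median change was -0.27 for the longer and -0.62 for the shorter members, against -0.06 and 0.02 over all genes of these spans. At a limit of 500 kb the shares lay further apart, and the members' medians stood in the reverse order. Of 13 members of at least 500 kb, 3 fell (23.1%, median change -0.77), against 6.74% of 193 such genes with a median of -0.37. Of the 36 shorter members, 5 fell (13.9%, median -0.28), against 2.05% of 14873 genes with a median of 0.01. Span and change had a Spearman's rho of 0.06 over the 49 members and of -0.03 over all genes, described across genes without a test.

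**Figure D5:**
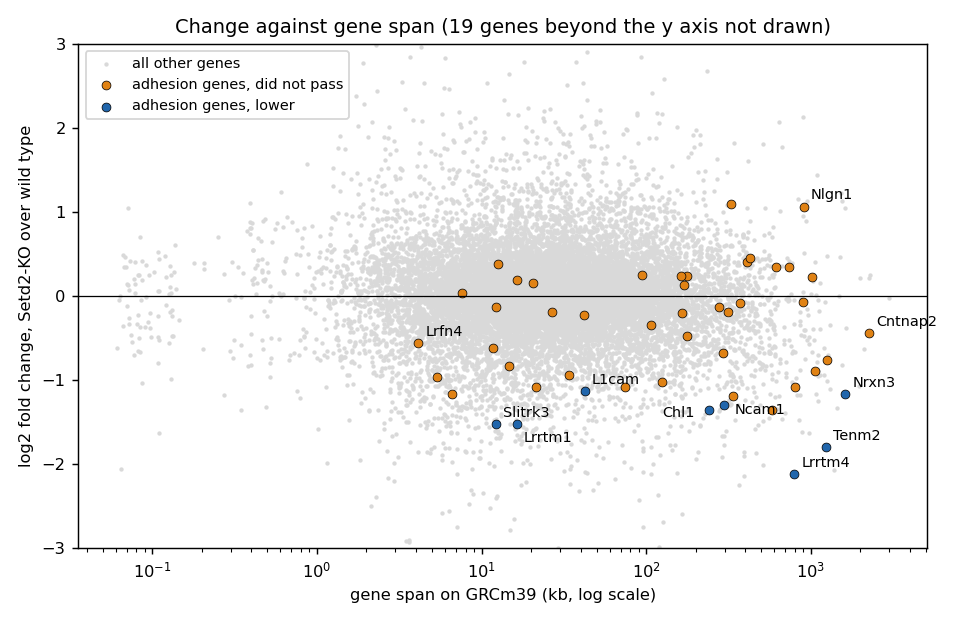
The x axis gives the gene span on GRCm39 in kb on a log scale and the y axis the log2 fold change of Setd2-KO over wild type, with colours as in the plot of change against level. The blue points run from Slitrk3 with 12.2 kb to Nrxn3 with 1612 kb, so that fallen genes are found among short and long adhesion genes.

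Several members share their locus with another gene. Lrrtm1 lies wholly inside Ctnna2 on the opposite strand; Ctnna2, an alpha-catenin of neurons, had a value of -0.89 and did not pass, while Lrrtm1 fell. Flrt1 lies inside Macrod1 (0.36), Flrt3 inside Macrod2 (0.21) and Lrfn4 inside Pcx (-0.82), each on the opposite strand. L1cam overlaps Arhgap4 on the same strand, and Arhgap4 had a value of 0.31. Cntnap1 overlaps the ends of Ezh1 (0.07) and Plekhh3 (-0.82) on the other strand. The library kit keeps the strand, but the sources used here do not give the strand setting of the counting, so reads in such shared stretches are uncertain.

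Promoter windows of the members, from 250 bases before to 50 bases after each RefSeq start on GRCm38.p6, were poorer in GC than those of other genes. They had a median GC content of 55.3% over 53 windows of 38 members, against 60.7% over 14876 windows of 11669 genes, and a median of 10 CpG dinucleotides against 19. Both strands were searched for the E-boxes CAGCTG and CAGATG, bound by proneural factors, and for TCAGCACC and GGACAG, both parts of the element read by REST, a repressor of neuronal genes. CAGCTG was found for 23.7% of members with a window and 18.3% of all such genes, CAGATG for 13.2% and 13.8%, TCAGCACC for 2.63% and 2.02%, and GGACAG for 23.7% and 26.8%. These shares are near those of all genes. Of the 7 called members with a window, CAGCTG was found for 1, CAGATG for 1 and GGACAG for 3.

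The windows below are shown because they span the contrast among the fallen genes. Lrrtm4, which fell most, has 2 annotated starts, chr6:80018627-80018926 and chr6:80019393-80019692 (GRCm38.p6, plus strand), with CAGCTG at -156, -147 and, in the later window, -40 from the start, and GGACAG on the reverse strand at -107. Tenm2 (chr11:36944192-36944491, minus strand) has none of the motifs, 40% GC and 2 CpG dinucleotides. The window and the gene span are on different builds. Whether this start is the 5′ end of the Tenm2 span or an internal one was not checked. L1cam also has 2 annotated starts, whose windows overlap. The one shown (chrX:73880741-73881040, minus strand) has CAGATG at -134, 69.3% GC and 25 CpG dinucleotides, and the other (chrX:73880785-73881084) has CAGATG at -90, 67% GC and 22 CpG dinucleotides. Each is written 5′ to 3′ on the gene's strand, with motif matches in capitals.
Lrrtm4, first start: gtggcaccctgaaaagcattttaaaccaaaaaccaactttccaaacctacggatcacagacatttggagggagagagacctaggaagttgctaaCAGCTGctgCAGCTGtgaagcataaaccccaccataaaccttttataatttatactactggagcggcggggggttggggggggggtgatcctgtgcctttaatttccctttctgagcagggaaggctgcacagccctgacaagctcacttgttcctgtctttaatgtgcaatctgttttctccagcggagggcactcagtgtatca
Lrrtm4, second start: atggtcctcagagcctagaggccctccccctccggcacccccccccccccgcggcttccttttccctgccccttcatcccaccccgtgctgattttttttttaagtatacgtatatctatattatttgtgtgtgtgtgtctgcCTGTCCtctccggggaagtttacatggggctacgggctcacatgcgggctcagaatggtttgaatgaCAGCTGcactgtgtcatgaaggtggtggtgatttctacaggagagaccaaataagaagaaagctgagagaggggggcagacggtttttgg
Tenm2: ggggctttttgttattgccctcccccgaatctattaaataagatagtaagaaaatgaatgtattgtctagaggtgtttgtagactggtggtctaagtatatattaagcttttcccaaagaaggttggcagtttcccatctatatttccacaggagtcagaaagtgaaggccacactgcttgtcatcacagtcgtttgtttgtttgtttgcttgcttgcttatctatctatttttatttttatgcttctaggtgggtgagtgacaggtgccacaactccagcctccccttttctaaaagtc
L1cam: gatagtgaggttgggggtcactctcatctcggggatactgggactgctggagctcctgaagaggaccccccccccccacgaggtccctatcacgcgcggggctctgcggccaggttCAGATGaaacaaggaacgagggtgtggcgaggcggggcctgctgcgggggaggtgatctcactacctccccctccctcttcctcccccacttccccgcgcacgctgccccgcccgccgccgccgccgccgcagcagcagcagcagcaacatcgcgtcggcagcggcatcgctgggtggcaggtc
Genes with CpG-poor and CpG-rich windows both fell, and a match to these letters is not a measured binding site.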

How the data were processed

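PolyA RNA-seq of 3 wild-type and 3 Setd2-KO NPC libraries was used, grouped by the sample titles. The authors made directional libraries; per the submitters' processing notes the builds were NCBIM37 and mm9 and the tools edgeR, STAR and Trim Galore, whereas the methods name GRCm39, GENCODE M35 and Salmon. The authors' deposited table gives, per gene, log2 fold changes, the average log2 CPM and the p-value and FDR of edgeR's glmTreat test against an absolute log2 fold change of 1, after their filter and normalization. It holds no counts, so depth per library is unknown and its effect on each gene is seen only through the average log2 CPM.

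The direction of the deposited fold changes is not stated with them. It was taken from the study's supplementary lists as wild type over Setd2-KO, and the values were reversed. Of 523 genes shared with those lists, 518 then had the same direction. This count is the basis for the sign used here and not a separate check of it. Of the 49 members, 7 were in those lists, all with the same direction, so that the lists and the 8 calls used here are not identical. Repeating the Benjamini-Hochberg adjustment on the 15095 p-values returned the FDR column. The unshrunk fold changes, another deposited column of log2 values, served as an alternative. Members were all genes whose symbol matches the family names. The members and lists were chosen with earlier results of these data known. Named were all called members, the 5 largest changes in each direction, the 10 with the highest average log2 CPM, family ranges, binding pairs, overlapping genes, members in shifted regions of chromosomes 19 and 3, and called partners. Other members and partners, called markers and genes beside a named one were named after their values were seen.

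Gene IDs, without version, matched GENCODE vM39 (GRCm39) for all 49 members and 15066 genes in all; 0 of the 49 versions were equal, so positions are those of that release and not of the authors' build. Promoters came from RefSeq (GRCm38.p6), matched by symbol for 38 members. Levels per kb divide the CPM by the canonical transcript length. Scripts used Python 3.11.15, numpy 2.4.6, pandas 2.3.3 and matplotlib; the adjustment was tested on simulated data. The planned comparison of protein sequences was not made, and 1 member that enters the counts and medians is not reported here on its own.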

Additional observations from a re-analysis of the deposited data

How the results depend on the processing

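Of the 49 adhesion genes, the 8 called lower became 6 at an FDR under 0.01 (L1cam and Slitrk3 lost), 8 at an FDR under 0.10 and 7 when the adjustment covered only genes at 0 log2 CPM or above (Slitrk3 lost, as it lies below that level). A Bonferroni adjustment left 5 (L1cam, Nrxn3 and Slitrk3 lost) and 3 of the 7 partner genes. With no test, an absolute log2 fold change over 1 gave 15 lower and 2 higher adhesion genes and 13 lower partners. No adhesion or partner gene was called higher at an FDR under 0.10, at an unadjusted p under 0.05 or with the narrower adjustment. An FDR under 0.01 and a Bonferroni adjustment are stricter than the main setting and could only return 0. The median change of -0.44 became -0.33 without chromosome 19 and the shifted regions of chromosome 3, and -0.32 as a median of family medians; it stayed below 0 in all 6 alternatives. The rank correlation of span and change was -0.06 for members at 0 log2 CPM or above. With canonical transcript length in place of span it was 0.14 over the members and -0.12 over all genes, of the opposite sign. None of these values was tested against 0. No paired analysis was possible because the deposited table holds no values per library, and for the same reason no library could be left out. The protein comparison was not run.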

Other observations

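Of the 33 listed scaffolds and anchors, 25 had values below 0, and the list ran from -1.87 for Ppfia2 to 0.88 for Epb41l3, a protein of the membrane skeleton. Ank2 and Ank3, the ankyrins to which the L1 family binds, had log2 fold changes of -0.93 and -0.90 at average log2 CPM of 7.43 and 6.54 (FDR 1 for both). Among the receptors and ligands, Ptprs, a receptor phosphatase of growing axons, had a value of -0.60 at an average log2 CPM of 9.49 (FDR 1). Il1rapl1, a postsynaptic ligand of PTPRD, had a value of -2.07 but an average log2 CPM of only -2.17 and did not pass (FDR 0.14). Dscaml1 and Ncam1 lie on the same chromosome with a gap of 3748 kb and had values on opposite sides of 0 (1.09 and -1.30). The difference was not tested. These genes were picked after their values were seen.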
